A study of Homo sapiens with 12 samples.

Results

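Neuroendocrine lineage plasticity genes are markers and drivers of the change in which prostate cancer cells under androgen receptor blockade take on features of neuroendocrine cells. The 9 genes described here, of 20037 protein-coding genes in the RefSeq annotation, were the transcription factor genes SOX2, POU3F2, INSM1, ONECUT2 and MYCN and the marker genes CHGA, SYP, ENO2 and NCAM1. The members were named genes, and their regions were all deposited regions that overlapped, by at least 1 bp, the gene or the 10 kb flanking it at each end, together called the locus here. The study profiled chromatin accessibility by ATAC-seq, in which a transposase cuts accessible DNA. The cells were 22Rv1, an established line of human prostate cancer labelled WT in genotype in every sample. There were 12 samples in 4 groups of 3, all of 6 h: vehicle, enzalutamide (an antagonist of the androgen receptor) at 1 µM, OSU-ERb-12 (a ligand of oestrogen receptor beta) at 100 nM, and the 2 agents together, whose samples carry no dose in their own labels. The deposited data analysed were 3 lists of regions from the nucleosome-free fraction, 1 for each treatment, with no value for any library. These were taken to be regions that differed from vehicle. The names of all 3 lists carry the tag neg, which could mark a single direction of change but is defined in no source used here. A listed region below is therefore a place and not a gain or a loss, and a locus without one may still have changed, also in a direction that the lists may not hold.

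The enzalutamide list held 25317 regions, the OSU-ERb-12 list 17931 and the list of the combined treatment, the combination list below, 6248. Of these, 15, 11 and 1 lay in the 9 loci. Depth per sample is unknown from such lists, and with 1 list for each treatment there is no replicate error, so no difference between treatments could be tested over samples. The lists also do not show whether 22Rv1 cells expressed any of the 9 genes, so their label could not be checked against a level.

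Prostate tumours are mostly adenocarcinomas of luminal cells that depend on the androgen receptor. When that receptor is blocked for long, some tumours lose luminal features and turn on a neural and neuroendocrine programme, led by transcription factors such as those above and read out by proteins of secretory granules, synaptic vesicles and the neuronal surface. POU3F2 (BRN2) and SOX2 are factors of neural progenitors, INSM1 is a zinc finger factor of neuroendocrine cells, ONECUT2 is a homeobox factor that opposes androgen receptor activity, and MYCN encodes N-Myc.

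Promoter sequences were at hand for 7 members, all but INSM1 and NCAM1. Of these, MYCN alone had a listed region within the 250 bases before its transcription start. The share of all promoters with such a region was not counted. The promoter sequences below are the 250 bases before the transcription start, 5′ to 3′ on the gene's strand, from RefSeq on GRCh38.p14. For MYCN (chr2:15940300-15940549, plus strand) the capitals mark the 149 bases that lay inside the enzalutamide region. For POU3F2 (chr6:98834324-98834573, plus strand) and ENO2 (chr12:6914330-6914579, plus strand), whose starts had an enzalutamide region on either side but none in the printed window, capitals mark matches to GGGCGG, the letters bound by SP1, and to TGANTCA, those of AP-1.
MYCN: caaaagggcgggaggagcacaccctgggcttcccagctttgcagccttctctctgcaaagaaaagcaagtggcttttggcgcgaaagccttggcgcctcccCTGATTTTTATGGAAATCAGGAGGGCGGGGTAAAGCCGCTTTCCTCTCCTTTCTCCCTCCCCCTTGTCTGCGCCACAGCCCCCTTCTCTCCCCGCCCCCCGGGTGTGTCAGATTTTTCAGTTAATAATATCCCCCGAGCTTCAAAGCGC
POU3F2: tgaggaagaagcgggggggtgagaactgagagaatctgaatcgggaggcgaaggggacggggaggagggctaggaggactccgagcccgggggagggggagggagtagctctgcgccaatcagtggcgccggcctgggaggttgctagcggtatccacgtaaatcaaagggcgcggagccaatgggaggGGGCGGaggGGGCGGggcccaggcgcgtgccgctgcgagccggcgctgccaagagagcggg
ENO2: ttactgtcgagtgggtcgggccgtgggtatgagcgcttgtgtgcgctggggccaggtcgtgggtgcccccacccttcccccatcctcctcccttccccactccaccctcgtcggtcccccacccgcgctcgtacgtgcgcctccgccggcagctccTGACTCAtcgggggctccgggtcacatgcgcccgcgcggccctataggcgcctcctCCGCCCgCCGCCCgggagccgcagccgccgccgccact

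The MYCN region, chr2:15940401-15940600, went on for 51 bases past the start. It held 2 of the 3 GGGCGG matches of the window, at 127 to 122 and at 58 to 53 bases before the start, while the match at 245 to 240 lay outside it. ENO2 was the 1 member of 7 with TGANTCA, as TGACTCA at 94 to 88 bases before the start, and 5.04% of the 15843 protein-coding promoters in the table hold these letters in a window of the same length. GGGCGG was present in all 7 members in the table and in 56% of all promoters. Both strands were searched. The 15-letter androgen receptor site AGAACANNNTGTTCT was in none of the 7 and in 0 of all 15843 windows, and AGAACA, 1 arm of it, was in none of the 7 and in 9.43% of all. GGTCANNNTGACC, the oestrogen receptor site, was in none of the 7 and in 0.0252% of all, and its arm GGTCA was in SOX2 and ENO2 and in 31.5% of all.

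Of the motifs of neural factors, the E-box CANNTG was found in SOX2, ONECUT2, MYCN, CHGA and ENO2 and in 57.8% of all promoters. In ENO2 the E-box shared 2 bases with GGTCA. None of the 7 windows held CAGATG (NEUROD type, 9.84% of all), CACGTG (MYC type, 7.84%), CATTGT (SOX, 6.7%), ATGCAAAT (POU octamer, 1.65%), ATTGAT (ONECUT, 4.13%), TGTTTAC (FOXA, 2.25%), or the arms CAGCACC (6.02%) and GGACAGC (5.35%) of the site of REST, the repressor of neuronal genes. These matches describe letters and not binding. Before the start, GC made up 57.2% of the MYCN window with 11 CpG dinucleotides, the lowest of the 7, while SYP and ENO2 had 74% each with 31 and 30, beside medians of 62.4% and 17 over all promoters.

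Across the 9 loci, enzalutamide regions lay at 7 genes (SOX2, POU3F2, INSM1, ONECUT2, MYCN, SYP and ENO2), where 58.3% of all protein-coding genes had one. OSU-ERb-12 regions lay at 6 (POU3F2, INSM1, ONECUT2, MYCN, ENO2 and NCAM1), where 39.1% of all genes had one. The combination list reached ENO2 alone, 1 of 9, where 21.7% of all genes had a region. The median member held 1 enzalutamide, 1 OSU-ERb-12 and 0 combination regions, and the median over all protein-coding genes was 1, 0 and 0. With 9 chosen genes, shares of 77.8%, 66.7% and 11.1% rest on few genes and carry no test. CHGA had no region of any list, as did 29.3% of all genes. All 3 lists meet at ENO2, as they did at 11.0% of genes, and 4 members, POU3F2, INSM1, ONECUT2 and MYCN, had regions of both single agents and none of the combination, a pattern of 18.2% of genes.

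**Figure D1:**
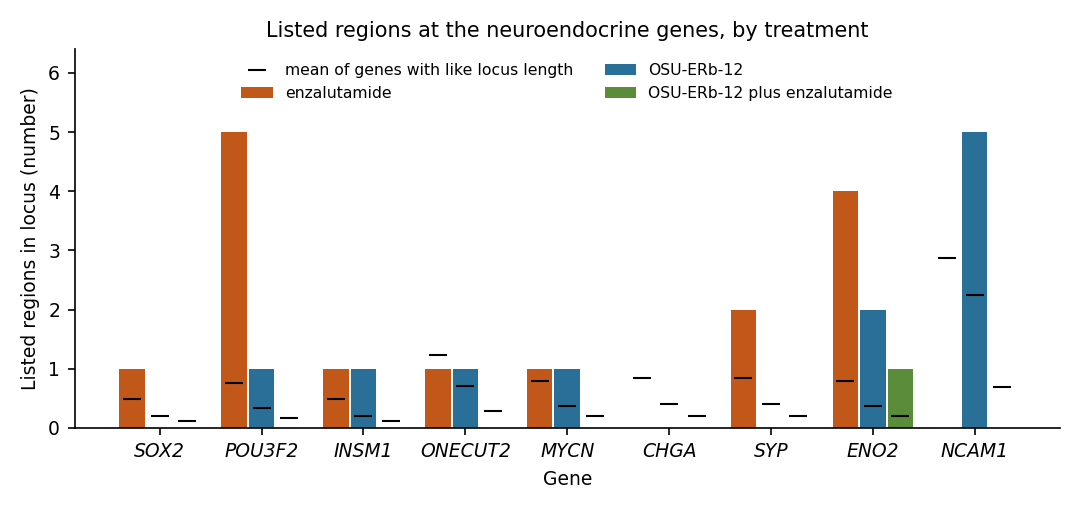
Number of listed regions (vertical axis) in the locus of each of the 9 genes (horizontal axis), by treatment list (bar colour), with a dash for the mean over protein-coding genes in the same decile of locus length. POU3F2 reaches 5 and ENO2 4 enzalutamide regions, NCAM1 reaches 5 OSU-ERb-12 regions with none of the other lists, and ENO2 holds the 1 combination region.

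Among the transcription factor genes, POU3F2 (chr6:98834574-98839458) held the most regions. Its 5 enzalutamide regions covered 1250 bp, a density of 20.1 per 100 kb of locus, against a mean of 0.751 regions over genes of like locus length, those in the same decile. Of the 3141 protein-coding genes with a locus no longer than that of POU3F2, 17 (0.541%) had 5 or more, POU3F2 included. The cut is the count of POU3F2 itself, the highest enzalutamide count of the members. The share therefore describes this gene and is no measure of rarity. The count of 5 depended on the rule. It became 2 with regions within 1 kb merged, 2 with regions wider than 200 bp alone and 2 within 1 kb of gene ends. It was 3 with a flank of 5 kb, 1 with no flank, 6 with 50 kb and 5 by nearest protein-coding gene. No rank was worked out for these counts. In this locus, 3 of the regions lay toward the start of the gene, 2 of them within 1 kb of it. Of these 2, chr6:98833951-98834150 ended 424 bp before the start and chr6:98834651-98834850 began 77 bp after it. The third, chr6:98832751-98833050, ended 1524 bp before the start and lay nearer to that of PNKY, 1050 bp away. The other 2 lay past the end of the gene, at chr6:98845051-98845250, 5592 bp outside, and chr6:98845701-98846050, 6242 bp outside. Both lay nearer to the start of LOC124901364, 1758 and 958 bp away. The OSU-ERb-12 list had 1 region here, and its boundaries were the same as those of the enzalutamide region at 98845051 to 98845250. The nearest combination region was 470492 bp outside the gene.

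At MYCN (chr2:15940550-15947004) the single agents were listed at different places. The enzalutamide region covered the start, as printed above. It also overlapped MYCNOS, the antisense gene. The OSU-ERb-12 region, chr2:15943551-15943750, began 3001 bp after the start inside the gene, 2950 bp from the enzalutamide region. The nearest combination region was 1416796 bp outside the gene.

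INSM1 and ONECUT2 likewise had 1 region of each single agent without overlap. In INSM1 (chr20:20368104-20370949) the enzalutamide region, chr20:20368951-20369250, lay inside the gene, and the OSU-ERb-12 region, chr20:20373851-20374050, lay 2901 bp outside, with 4600 bp between them. The nearest combination region was 12903 bp outside INSM1, just past the 10 kb limit. For ONECUT2 (chr18:57435374-57491298) both lay inside the gene, the OSU-ERb-12 region chr18:57438451-57438650 at 3077 bp and the enzalutamide region chr18:57444301-57444750 at 8927 bp after the start, with 5650 bp between them. This enzalutamide region was 450 bp wide, a width that 5.33% of the list reached. ONECUT2 has a longer locus (75.9 kb), and genes of like length held 1.24 enzalutamide regions on average, so its 1 region was below that mean.

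SOX2 (chr3:181711925-181714436) had 1 region, from enzalutamide, at chr3:181712551-181712800. It began 626 bp after the start and also lay within SOX2-OT, a long noncoding gene that spans SOX2. The nearest OSU-ERb-12 region was 24524 bp and the nearest combination region 498924 bp outside the gene.

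**Figure D2:**
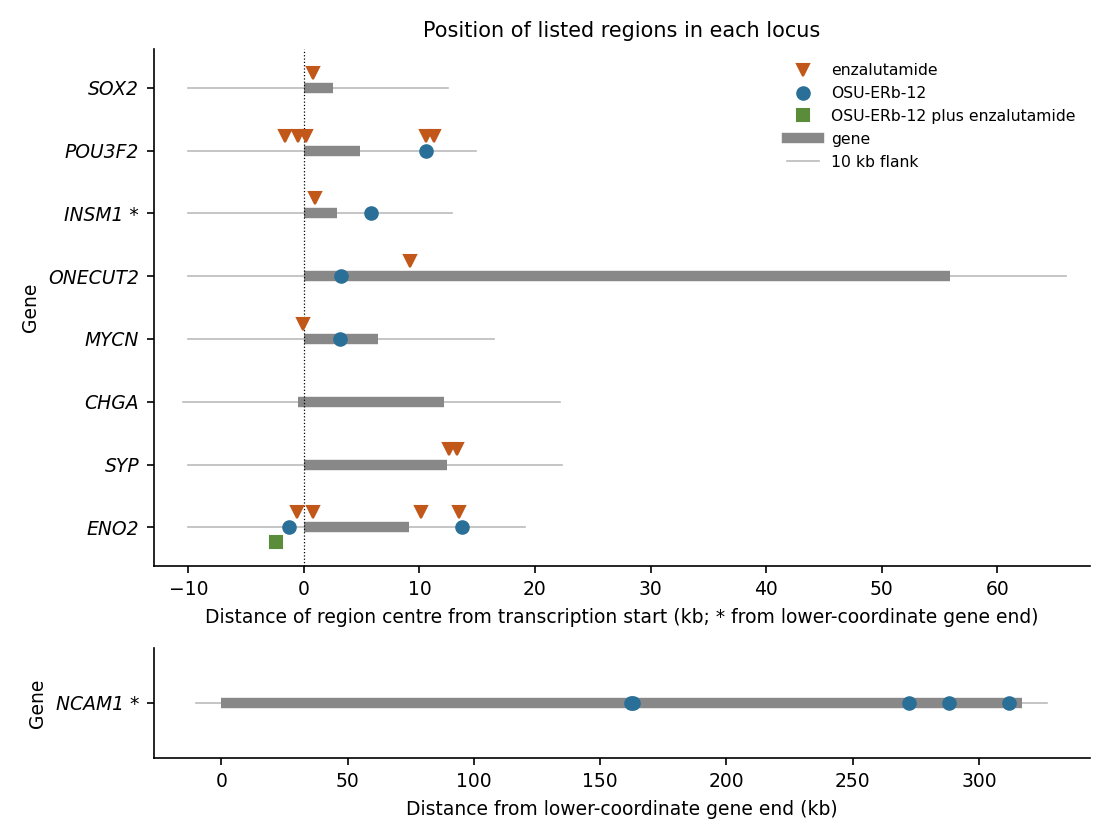
Centres of listed regions along each locus (horizontal axis, kb in the direction of transcription from the start, or from the lower-coordinate gene end for INSM1 and NCAM1), by treatment (colour and shape), over the gene (thick bar) and its 10 kb flanks (thin line). Enzalutamide markers lie within 1 kb of the starts of SOX2, POU3F2, MYCN and ENO2. No OSU-ERb-12 marker lies within 1 kb of a member's own start, where that start was known. The nearest such region ended 1180 bp before the start of ENO2. All 5 NCAM1 markers fall inside the gene.

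Of the marker genes, ENO2 (chr12:6914580-6923697), which encodes neuron-specific enolase, held 4 enzalutamide, 2 OSU-ERb-12 and 1 combination regions, or 13.7, 6.87 and 3.43 per 100 kb. Genes of like locus length held 0.785, 0.370 and 0.196 on average. Of the 5274 genes with a locus no longer than that of ENO2, 108 had at least as many enzalutamide regions, ENO2 included. Here too the cut is the gene's own count, so the number is a description only. On the side before the start, 1 region of each list lay within 3 kb, and none overlapped another: the combination region chr12:6912051-6912250 ended 2330 bp before the start, the OSU-ERb-12 region chr12:6913201-6913400 ended 1180 bp before it and the enzalutamide region chr12:6913851-6914050 ended 530 bp before it. A further enzalutamide region, chr12:6915251-6915450, began 671 bp after the start.

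The ENO2 locus is crowded, and 6 of its 7 regions overlapped a neighbouring protein-coding gene. The 3 regions before the start lay in LRRC23, a gene of leucine-rich repeats. In ATN1, the gene of atrophin 1, lay the enzalutamide regions chr12:6924551-6924800 and chr12:6927551-6928400 and the OSU-ERb-12 region chr12:6928151-6928350. The wide one of these measured 850 bp, a width that 0.427% of the enzalutamide list reached, and it contained the whole OSU-ERb-12 region. With 50 kb on either side, ENO2 had 11 enzalutamide, 5 OSU-ERb-12 and 5 combination regions.

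SYP (chrX:49187815-49200193), on the minus strand, encodes synaptophysin of synaptic vesicles. It had 2 enzalutamide regions and none of the other lists. Both lay past the end of transcription and not at the start: chrX:49187451-49187750 was 64 bp outside SYP, and chrX:49186801-49187000 was 814 bp outside SYP and 427 bp from the start of PRICKLE3, the next gene. The nearest OSU-ERb-12 region was 666564 bp outside SYP, on a chromosome where that list was sparse (0.0686 per 100 kb). The nearest combination region was 35607 bp away.

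NCAM1 (chr11:112961420-113278436), the gene of the adhesion molecule CD56, showed the reverse arrangement, with 5 OSU-ERb-12 regions and none of the other lists. Like 7.70% of protein-coding genes of all lengths, it was listed for OSU-ERb-12 alone. Its locus of 337 kb is the longest of the 9, and per 100 kb the OSU-ERb-12 regions came to 1.48, the second lowest density among the 6 members listed for that agent, above ONECUT2 with 1.32. The 5 regions were chr11:113123551-113123750 and chr11:113124151-113124400, close together near the middle of the gene, then chr11:113233601-113233800, chr11:113249451-113249700 and chr11:113273101-113273300, which also overlapped NCAM1-AS1. None lay within 1 kb of a gene end. The nearest enzalutamide region was 109314 bp outside the gene and the nearest combination region 167664 bp.

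Long genes seldom lacked enzalutamide regions. Of the 708 protein-coding genes with a locus at least as long as that of NCAM1, 53 (7.49%) had no enzalutamide region. A combination region was absent from 346 (48.9%) of the 708, and 203 (28.7%) had 5 or more OSU-ERb-12 regions. Over all lengths, 348 genes held 5 or more OSU-ERb-12 regions, of which 14 held no enzalutamide region and 4 held neither an enzalutamide nor a combination region. NCAM1 was 1 of these 4, and the comparison was made after its values were seen.

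CHGA (chr14:92922664-92935285), the gene of chromogranin A in secretory granules, was empty in every list. The nearest regions were 163913 bp (enzalutamide), 333313 bp (OSU-ERb-12) and 235763 bp (combination) outside the gene. Of genes with like locus length, 53.0% had an enzalutamide, 31.2% an OSU-ERb-12 and 17.2% a combination region.

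**Figure D3:**
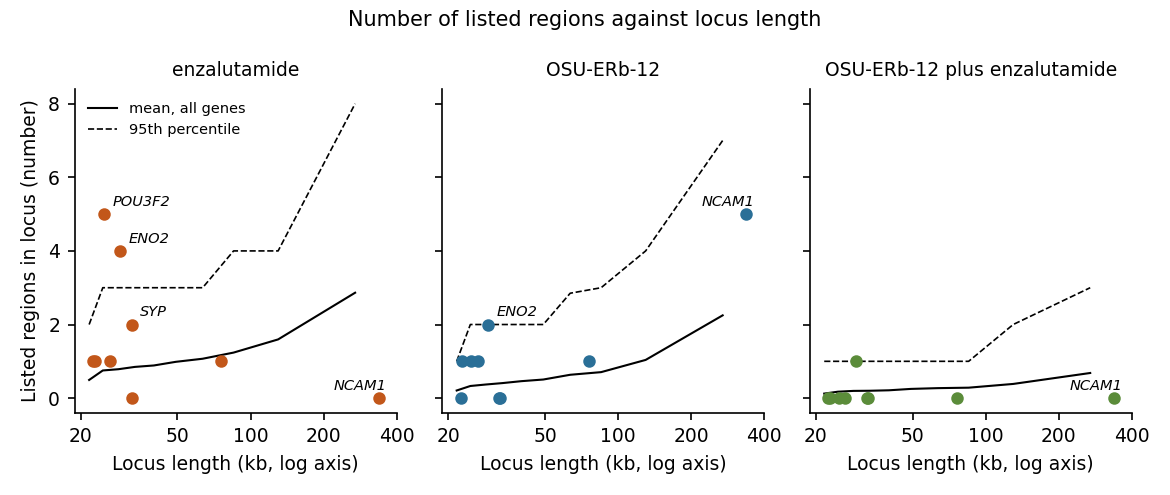
Number of listed regions (vertical axis) against locus length in kb (horizontal log axis) for the 9 genes (points, some overlapping), 1 panel for each treatment list, with the mean (solid line) and 95th percentile (dashed line) by decile of locus length over all protein-coding genes. In the enzalutamide panel POU3F2 with 5 and ENO2 with 4 lie above the dashed line and NCAM1 lies at 0, and in the OSU-ERb-12 panel NCAM1 with 5 lies below the dashed line.

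The place of the regions within these loci is given here as a description, with no test between the lists. Transcription starts were in the RefSeq table for 7 members, all but NCAM1 and INSM1. Within 1 kb of the start, enzalutamide regions lay at 4 of the 7 (SOX2, POU3F2, MYCN and ENO2), where 27.0% of 15843 protein-coding genes had one. OSU-ERb-12 regions lay there at 0 of 7 and combination regions at 0 of 7, where 5.90% and 4.67% of genes had one, so few or none would be seen in 7 genes of any kind. Counted over regions, 6 of the 14 enzalutamide regions at these 7 members lay within 1 kb of the member's start, beside 25.7% of the 18682 pairs of a gene and an enzalutamide region in its locus over all protein-coding genes with a start. For OSU-ERb-12 and the combination the numbers were 0 of 5 and 0 of 1 at the members, beside 8.76% and 17.0% of such pairs. The pairs were not matched for locus length.

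With both gene ends counted, so that all 9 members enter, enzalutamide regions lay within 1 kb of an end at 6 members, against 28.3% of all genes, and OSU-ERb-12 and combination regions at 0, against 7.88% and 5.51%. By position, 10 of the 15 enzalutamide regions were at gene ends, 1 was inside a gene away from its ends and 4 were in the flanks, where 28.5%, 45.0% and 26.5% of such pairs over all protein-coding genes fell. Of the 11 OSU-ERb-12 regions, 7 were inside genes, 5 of them in NCAM1, and 4 were in the flanks, beside 62.35% and 25.75% over all genes. In genes as short as SOX2 (2.51 kb) and INSM1 (2.85 kb) the 1 kb windows at the ends cover most of the gene. All members but ONECUT2 and NCAM1 had loci within the shortest 33.6% of genes, and the shares over all genes were not matched for length. Some of the 10 enzalutamide regions at gene ends, at SYP and ENO2, were nearest to another gene (PRICKLE3, LRRC23 or ATN1). Whether the members differ from genes of like length in position was not tested. Enzalutamide regions at the members had a width of 200 bp, the shortest in the lists, in 7 of 15 cases (46.7%), close to 45.7% of the whole list, and OSU-ERb-12 regions in 9 of 11 (81.8%), beside 66.1%.

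**Figure D4:**
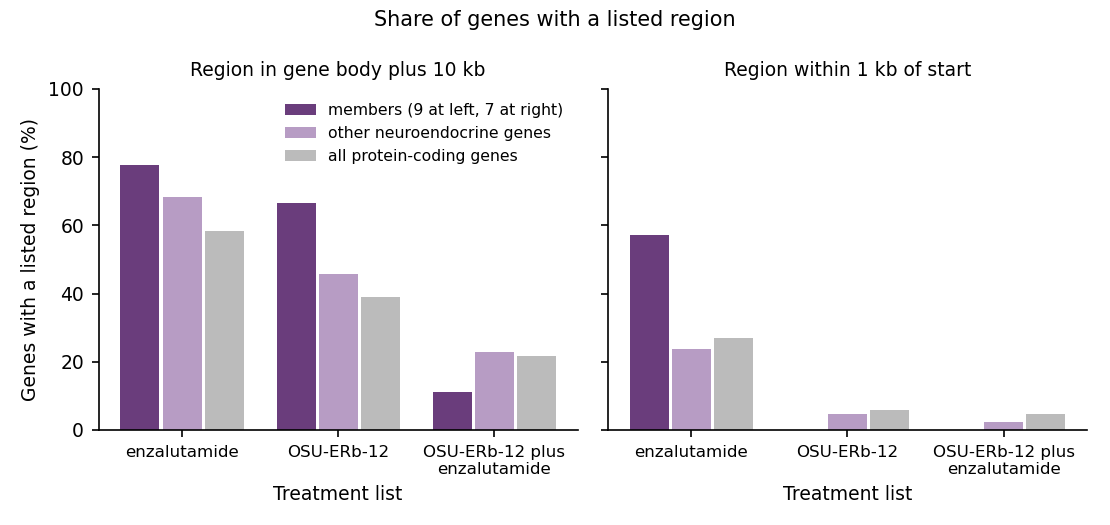
Percentage of genes (vertical axis) with a listed region in the locus (left) or within 1 kb of the transcription start (right), by treatment list, for the members, for 57 other neuroendocrine genes (42 with a start in the table) and for all protein-coding genes. Members stand at 77.8% and 66.7% for the single agents in the left panel and at 57.1% for enzalutamide in the right panel, where they have no bar for the other lists.

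The single agents shared 2 regions at the members, 1 at POU3F2 and 1 at ENO2, described above. That is 13.3% of the 15 enzalutamide regions and 18.2% of the 11 OSU-ERb-12 regions, where 6.17% and 8.72% of the whole lists overlapped the other. Neither agent shared a member region with the combination list, of which 1 region lay at the members. In the whole lists, 4.02% of enzalutamide and 4.43% of OSU-ERb-12 regions overlapped a combination region, and 16.3% and 12.7% of combination regions overlapped those lists, so numbers near 0 would be usual among 15, 11 and 1 regions. At POU3F2 the nearest unshared enzalutamide region was 450 bp from the OSU-ERb-12 region, the same gap as between the enzalutamide and OSU-ERb-12 regions before the start of ENO2. All 3 comparisons use the same vehicle group, and without values for each library its part in the shared places was not tested.

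Genes with the same numbers of regions as the fullest members were found elsewhere in the genome. For ENO2 (4, 2 and 1 regions of enzalutamide, OSU-ERb-12 and the combination), 37 other protein-coding genes had the same 3 numbers, a summed difference of 0 over 3 lists, and those nearest in locus length were ENO3, the muscle enolase gene, SMARCD2, a chromatin remodelling subunit gene, and TBL3. For POU3F2 (5, 1 and 0), 42 had the same numbers, the nearest in length being CDKN1B, the gene of the cell cycle inhibitor p27, TGFBR3L and HOXB7, a homeobox gene.

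The wider neuroendocrine programme was read from 57 other genes in 4 lists. Enzalutamide regions lay at 39 of them (68.4%), OSU-ERb-12 regions at 26 (45.6%) and combination regions at 13 (22.8%), while 10 had none. These shares stand beside 58.3%, 39.1% and 21.7% of all genes, and the medians were 1, 0 and 0 regions, as over all genes. Within 1 kb of the start, 10 (23.8%), 2 (4.76%) and 1 (2.38%) of the 42 genes with a known start had a region, beside 27.0%, 5.90% and 4.67% of all genes.

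Lineage transcription factor genes numbered 18, of which 12 (66.7%) had an enzalutamide, 5 (27.8%) an OSU-ERb-12 and 3 (16.7%) a combination region. The shares over all protein-coding genes were 58.3%, 39.1% and 21.7%. PROX1, a homeobox factor gene, led with 3, 2 and 1, followed by the pioneer factor gene FOXA2 with 1, 2 and 0 and NKX2-1 with 2, 1 and 0. Of 12 granule and vesicle genes, 7 (58.3%), 4 (33.3%) and 1 (8.33%) had a region. SYT1, the calcium sensor of vesicle release, held 5, 6 and 1 in a locus of 608 kb, DDC, which makes dopamine and serotonin, held 4, 2 and 0, and the granule peptide gene VGF held 1, 3 and 0. In this class 5 of the 12 genes were empty, beside 29.3% of all protein-coding genes.

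The 10 surface and cytoplasmic markers had 7 (70%), 6 (60%) and 3 (30%) genes with a region. NCAM2, the paralogue of NCAM1, held 3, 1 and 1 in 564.9 kb, so it had enzalutamide regions where NCAM1 had none. ENO1, the ubiquitous enolase, held 1, 2 and 1. Repressors and regulators of the programme were the most widely listed of the 4 classes, with 13 (76.5%), 11 (64.7%) and 6 (35.3%) of 17 genes and none empty. Over all protein-coding genes the shares were 58.3%, 39.1% and 21.7%. The classes were not matched for locus length, on which these shares depend. Enzalutamide regions lay at 31.8% of all genes in the shortest decile and at 86.9% in the longest. Whether the ranking of the classes goes beyond length was not tested. RCOR1, a corepressor that works with REST, held 4, 1 and 1, SRRM4, a splicing factor gene of neural exons, held 2, 2 and 1, and the Polycomb gene CBX2 held 1, 2 and 1.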

How the data were processed

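Nucleosome-free ATAC-seq fragments were separated with ATACSeqQC, per the labels' protocols. Per the submitters' processing notes, the tools named include FastQC and Trimmomatic, and the build is hg38. The calling and testing of peaks, the threshold, the direction and any pooling were not given in the sources used here, and the tag neg in the list names is undefined. Each of the authors' deposited lists has 6 columns without a header, and the deposited score is 0 in every row, so regions could not be ranked. Region boundaries are in bp. Lists were matched to treatments by the prefix they share with sample titles, which is WT for OSU-ERb-12, and all values for that agent depend on it.

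Genes, starts and promoters came from RefSeq GRCh38.p14 (20037 protein-coding genes on 24 chromosomes, 15843 with a start). All 9 members matched by symbol, 7 with a promoter. Coordinates are 1-based. Like locus length means the same decile of protein-coding genes by locus length. Counting was done in Python 3.11.15 with pandas 2.3.3 and tested on simulated regions. No test was run, since the lists hold no values per library. Named genes were the 9 members, the 3 genes with most regions in each of 4 lists, and the 3 genes nearest in region numbers to each of the 2 fullest members, with KRT8, KRT18, KRT5, KRT14 and TP63 added after their values were seen; 1 gene so named and 1 motif are not reported here. Members and lists were chosen with earlier results of these data known. Other locus windows, assignment to the nearest gene, wider regions, merging and other overlap rules were tried as alternatives.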

Additional observations from a re-analysis of the deposited data

How the results depend on the processing

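The enzalutamide count of 7 members stayed between 6 and 7 over the 7 alternatives, while the other counts moved with the window. Apart from the window of 1 kb at gene ends, the share over all protein-coding genes was not counted under these rules. Whether the members differ from other genes under them is therefore unknown. With no flank, enzalutamide regions fell from 15 to 6, OSU-ERb-12 from 11 to 7 at 3 members, and the combination to 0 regions at 0 members, with 0 shared by the single agents. With 50 kb on either side there were 29 enzalutamide regions, 18 OSU-ERb-12 regions and 7 combination regions at 3 members, and the combination then shared 1 region with enzalutamide and 2 with OSU-ERb-12. Within 1 kb of gene ends, OSU-ERb-12 and the combination each had 0 regions at 0 members. Where the member had to be the nearest protein-coding gene, the combination had 0 regions at 0 members. With regions wider than 200 bp alone (whether width follows the strength of a call is unknown, since every score is 0), 8 enzalutamide regions, 2 OSU-ERb-12 regions at 1 member and 0 combination regions at 0 members were left, and the single agents shared 0, so the OSU-ERb-12 and combination results rest mostly on regions of the shortest width. For single genes, 45 of 189 recounts moved, by more than 1.5 times or to or from 0, and 144 did not. By the same rule, 24 of 57 recounts moved for the counts over all members and their shared regions, and 33 did not. The 144 include counts of 0 that stayed at 0, as for CHGA and for most combination counts. Narrower windows and filters could not change these, so the 144 do not measure how stable the other counts are. No paired analysis was possible because the lists hold no values per library, and for the same reason no replicate could be left out. Depth behind the lists is unknown, and an unlisted locus may still have changed.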

Other observations

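Markers of the luminal and basal lineages were counted in the same way. Of 7 luminal genes, 6 had an enzalutamide, 6 an OSU-ERb-12 and 1 a combination region, beside 58.3%, 39.1% and 21.7% of all protein-coding genes; some of these loci, such as those of KRT8 and its neighbour KRT18, overlap. KRT8, a luminal keratin gene, held 7, 4 and 0 regions in a locus of 72.7 kb. Of 3 basal genes, the keratin genes KRT5 and KRT14 had none, and TP63 held 0, 2 and 0 in 320.5 kb. Like NCAM1, TP63 was a long gene listed for OSU-ERb-12 alone. Over protein-coding genes of all lengths 7.70% had this pattern, and its share among long genes was not counted. Genes in the longest decile of locus length held 2.25 OSU-ERb-12 regions on average. KRT8, KRT18, KRT5, KRT14 and TP63 were named after their values were seen.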
